A study of Arabidopsis thaliana with 20 samples.

Results

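The unfractionated plastid DNA of ptac3 mutant seedlings was compared with that of Col-0 seedlings of Arabidopsis thaliana. The libraries were chosen by their titles, which name the genotype and the word input. They are 6 of the 20 libraries of the series, 3 from ptac3 and 3 from Col-0. The series maps where protein sits on the plastid genome with in vivo protein occupancy display (IPOD): crosslinked DNA is fragmented, and the protein-bound fraction is sequenced beside the unfractionated input. Input serves as the reference for occupancy, so its own profile along the genome enters every occupancy value.

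Both groups of seedlings were 4 to 5 days old, were grown on plates under continuous light and were given no treatment. Each sample pooled 50 seedlings, which were fixed in 4% formaldehyde for 4 h before the chloroplasts were isolated. The ptac3 group was formed from the title and the cell line label, because its genotype label reads wild type. The Col-0 group is the wild type. The allele of the ptac3 line is not given in the labels. PTAC3 is encoded in the nucleus and the files hold plastid positions only, so the mutation could not be checked in these data. Nothing in the labels says that the 3 libraries of a group came from separate seedling cultures, and the p-values measure the spread between these libraries.

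Plastid DNA is packed with protein and RNA into nucleoids, and its transcriptionally active fraction holds the plastid-encoded RNA polymerase with a set of associated proteins, the pTACs. PTAC3 is one of these, and mutants that lack it are pale and poor in transcripts of photosynthesis genes. The plastid genome of Arabidopsis is a circle with a large and a small single-copy region separated by a pair of inverted repeats, and each repeat carries a ribosomal RNA (rRNA) operon. Every copy of the molecule holds each single-copy gene once, so an even recovery of DNA would give the same depth at every single-copy gene.

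Reads per base averaged 120, 325 and 200 in ptac3 input libraries 1, 2 and 3, against 192, 441 and 213 in Col-0 input libraries 1, 2 and 3. Counting noise per bin of 50 bp, taken from the difference between the repeat copies, had a standard deviation (SD) of 0.088 to 0.13 in ptac3 and of 0.076 to 0.11 in Col-0 on the log2 scale. These values hold for bins of the repeat. The single-copy regions were shallower, and the noise of their bins was not measured. All levels below are relative depths, the mean depth per base of a region or gene divided by the mean of its library. ptac3 input 1 stood apart from the other ptac3 inputs. Its root mean square difference over bins, on the log2 scale, was 0.36 to ptac3 input 2 and 0.52 to ptac3 input 3, but 0.21, 0.27 and 0.22 to Col-0 inputs 1, 2 and 3. Within Col-0 the differences were 0.19 to 0.24. The first principal component of the 6 profiles took 67.3% of the variance, with weights of -0.24, 0.31 and 0.78 for ptac3 inputs 1, 2 and 3 and of -0.31, -0.25 and -0.28 for Col-0 inputs 1, 2 and 3. The title and cell line label of ptac3 input 1 both say ptac3, and it was kept. Results are given with and without it. It was singled out on these same values, so the results without it are a description.

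The first comparison set the regions of the genome against each other. In both genotypes the depth recorded at the inverted repeat was above that of the large single-copy region, and the depth of the small single-copy region was below it. The repeat was 2.04, 1.61 and 1.48 times as deep as the large single-copy region in ptac3 inputs 1, 2 and 3, against 2.06, 1.79 and 2.03 times in Col-0 inputs 1, 2 and 3. ptac3 input 1 lay among the Col-0 values and the other ptac3 inputs lay below them. The mean ratio was 1.71 ± 0.294 in ptac3 and 1.96 ± 0.146 in Col-0 (SD, n = 3 each). The log2 difference of -0.21 did not pass a 2-sided exact permutation test (p = 0.3, n = 3 each), for which 0.1 is the smallest p that 3 libraries against 3 can give. Without ptac3 input 1 the log2 difference was -0.34. Where reads that match both repeat copies were placed is not given in the sources used here, so the ratio is not a copy number. The same tools are named for both genotypes in the submitters' processing notes.

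The repeat was split into its rRNA operon, taken here from the start of the rRNA gene rrn16S to the end of rrn4.5S, and the rest. Any part of the operon beyond rrn4.5S was counted with the rest, as was the neighbouring tRNA gene trnR (ArthCt127). Outside the operon the repeat was 1.46, 1.31 and 1.21 times as deep as the large single-copy region in ptac3 inputs 1, 2 and 3, against 1.53, 1.48 and 1.53 times in Col-0 inputs 1, 2 and 3. All ptac3 libraries lay below all Col-0 libraries, library 1 included. The means were 1.33 ± 0.123 in ptac3 and 1.51 ± 0.0287 in Col-0 (SD, n = 3 each), a log2 difference of -0.20. The exact permutation p was 0.1, the smallest the design allows, and 0.3 after Benjamini-Hochberg adjustment over the 9 measures tested in this way. Planned measures were only the ratios of the repeat and of the small single-copy region to the large one, and the SD over bins given below. The others, this one included, were outside the plan. The relative depth of the operon itself was 2.83, 2.08 and 1.97 in ptac3 inputs 1, 2 and 3, against 2.70, 2.16 and 2.62 in Col-0 inputs 1, 2 and 3. The operon was deeper than any of the other regions in all 6 libraries. It was 2.11 ± 0.404 times as deep as the rest of the repeat in ptac3 and 2.15 ± 0.289 times in Col-0 (SD, n = 3 each), with overlapping libraries, a log2 difference of -0.035 and an exact permutation p of 1. Without ptac3 input 1 the log2 difference was -0.19.

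The small single-copy region, which carries most genes of the NDH complex, had a relative depth of 0.563, 0.685 and 0.794 in ptac3 inputs 1, 2 and 3, against 0.590, 0.657 and 0.611 in Col-0 inputs 1, 2 and 3. The Col-0 libraries lay inside the range of ptac3. Set against the large single-copy region it was 0.825 ± 0.0851 times as deep in ptac3 and 0.806 ± 0.0155 times in Col-0 (SD, n = 3 each). The log2 difference was 0.029 and did not pass the exact permutation test (p = 0.8, n = 3 each). Without ptac3 input 1 it was 0.098. The spread between the 3 ptac3 libraries was wider than the whole difference between the genotypes.

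**Figure D1:**
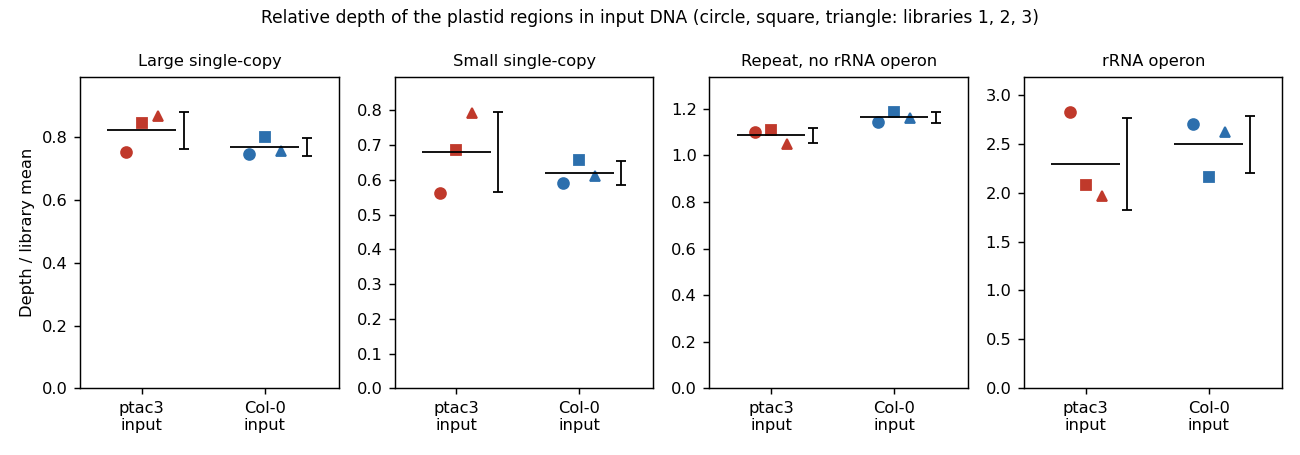
Relative depth (depth divided by the library mean, y axis) of the large single-copy region, the small single-copy region, the repeat without its rRNA operon, and the rRNA operon, for ptac3 input (red) and Col-0 input (blue). Points are libraries, lines are means and bars beside them are 1 SD (n = 3 each); the groups are apart only in the repeat without the operon, where ptac3 spans 1.05 to 1.11 and Col-0 spans 1.14 to 1.19.

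Along the genome the genotypes followed one profile, cut here into 26 windows of 5 kb, the last one shorter. The ratio of the ptac3 mean to the Col-0 mean lay between 0.900 and 1.14 in every window. The lowest ratio was in the window at 105001 to 110000 in the repeat, where relative depth was 2.37, 1.82 and 1.76 in ptac3 inputs 1, 2 and 3, against 2.36, 1.94 and 2.31 in Col-0 inputs 1, 2 and 3. The highest ratio was in the window at 110001 to 115000, most of which lies in the small single-copy region, with 0.527, 0.625 and 0.756 in ptac3 inputs 1, 2 and 3, against 0.554, 0.569 and 0.547 in Col-0 inputs 1, 2 and 3. In both windows ptac3 input 1 lay just beyond the end of the Col-0 range that is away from the other ptac3 inputs. The libraries did not overlap in a window at 55001 to 60000, where ptac3 spanned 0.883 to 0.958 and Col-0 spanned 0.851 to 0.874. They also did not overlap at 95001 to 100000 in the repeat, where ptac3 spanned 1.05 to 1.11 and Col-0 spanned 1.13 to 1.21. Positions are those of the deposited files, on TAIR10.

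**Figure D2:**
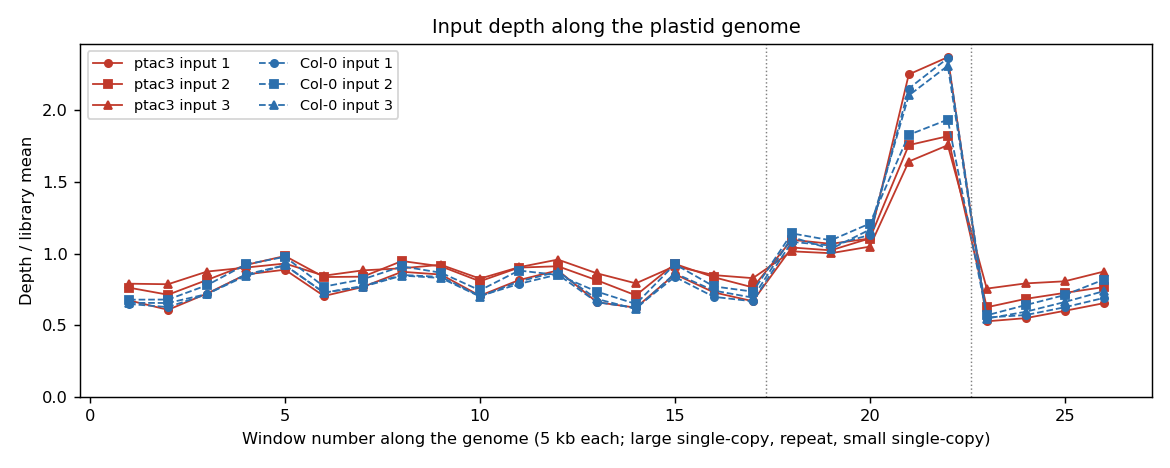
Relative depth (y axis) in 26 consecutive 5 kb windows (x axis) through the large single-copy region, the first repeat copy and the small single-copy region, with dotted lines at the region borders. ptac3 inputs are red with solid lines and Col-0 inputs are blue with dashed lines; in the pair of windows over the rRNA operon ptac3 input 1 lies with Col-0 inputs 1 and 3 above the rest, and ptac3 input 3 is the lowest.

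The profile was flatter in ptac3 inputs 2 and 3 than in the other 4 libraries. The SD of log2 relative depth over the 2564 bins was 0.87, 0.64 and 0.50 in ptac3 inputs 1, 2 and 3, against 0.88, 0.85 and 0.86 in Col-0 inputs 1, 2 and 3. Library 1 of ptac3 fell within the Col-0 range and the difference of -0.19 did not pass the exact permutation test (p = 0.3, n = 3 each). Without that library the difference was -0.29. A straight line of the log2 level of each library on the mean Col-0 input, over genes, had a slope of 1.06, 0.747 and 0.623 for ptac3 inputs 1, 2 and 3. For Col-0 inputs 1, 2 and 3, each set against the mean of the other Col-0 inputs, the slope was 1.12, 0.862 and 1.00. A slope below 1 means that genes deep in Col-0 were less deep in that library and shallow genes less shallow. Genes of 1 library share its depth and fragment lengths, so the slopes describe libraries and carry no test.

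**Figure D3:**
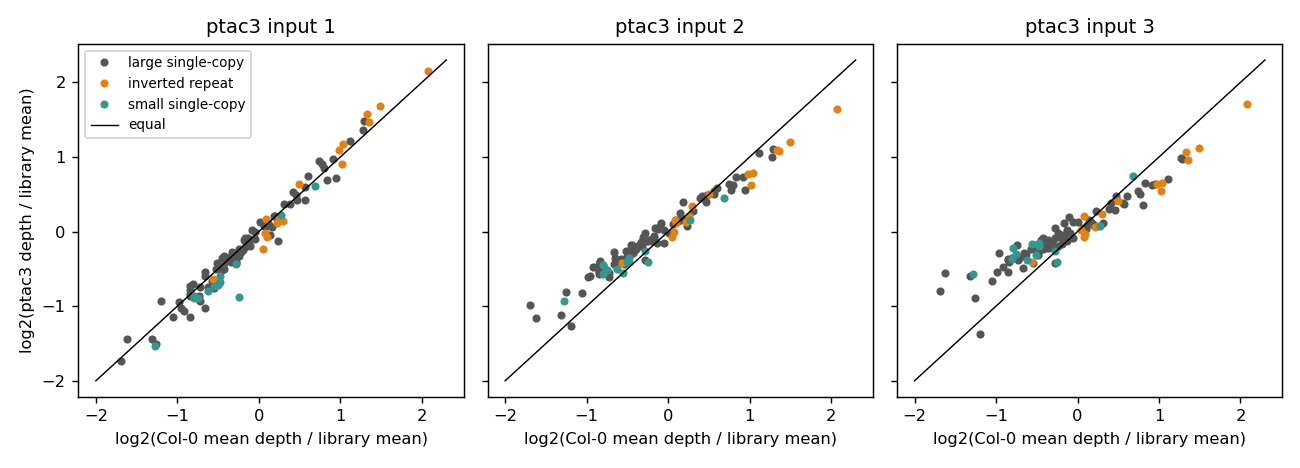
Log2 relative depth of 112 genes in ptac3 inputs 1, 2 and 3 (y axis, a panel each) against their mean in the 3 Col-0 inputs (x axis); points are genes, coloured by region, and the line marks equal levels. The cloud follows the line for ptac3 input 1 (slope 1.06) and is flatter for ptac3 input 2 (0.747) and ptac3 input 3 (0.623).

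Shallow bins were fewer in the ptac3 inputs. Bins under 0.25 of the library mean numbered 137, 46 and 17 in ptac3 inputs 1, 2 and 3, against 149, 163 and 145 in Col-0 inputs 1, 2 and 3. All ptac3 libraries had fewer such bins than all Col-0 libraries, although ptac3 input 1 was close to Col-0. The means were 66.7 ± 62.6 bins in ptac3 and 152 ± 9.45 bins in Col-0 (SD, n = 3 each). The exact permutation p was 0.1, the smallest possible, and 0.3 after adjustment over the 9 measures. The count of shallow bins was not a planned measure. At the deep end, bins above 2 times the mean numbered 173, 95 and 71 in ptac3 inputs 1, 2 and 3, against 179, 154 and 172 in Col-0 inputs 1, 2 and 3. These counts overlapped, with a mean difference of -55.3 bins (exact permutation p = 0.3, n = 3 each), or -85.3 bins without ptac3 input 1.

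Spacers between genes made up most of the shallow bins. Of the 115 bins under 0.25 in all Col-0 inputs, 97 (84.3%) lay in spacers, against 30.5% of all 2564 bins. The large single-copy region held 90 of them, the small single-copy region 24 and the repeat 1. The bins were chosen as shallow in Col-0, so their levels are a description. Their median relative depth was 0.187, 0.269 and 0.438 in ptac3 inputs 1, 2 and 3, against 0.176, 0.150 and 0.163 in Col-0 inputs 1, 2 and 3. Every ptac3 input lay above every Col-0 input, and ptac3 input 1 lay nearest to them.

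Spacer depth was then set against genic depth within a region. In the small single-copy region spacers were 0.635, 0.651 and 0.799 times as deep as genes in ptac3 inputs 1, 2 and 3, against 0.552, 0.518 and 0.508 times in Col-0 inputs 1, 2 and 3. All ptac3 libraries lay above all Col-0 libraries, by 0.39 on the log2 scale (exact permutation p = 0.1, the smallest possible, n = 3 each, and 0.3 after adjustment over the 9 measures). The spacer ratios were not planned measures. In the large single-copy region the ratio was 0.612, 0.681 and 0.786 in ptac3 inputs 1, 2 and 3, against 0.621, 0.635 and 0.630 in Col-0 inputs 1, 2 and 3. Here ptac3 input 1 lay below the Col-0 libraries and the others above them (log2 difference 0.13, exact permutation p = 0.4, n = 3 each). Without ptac3 input 1 the log2 difference was 0.22. The median log2 difference of ptac3 from Col-0 was 0.42 over the 67 spacer bins and 0.12 over the 288 genic bins of the small single-copy region. It was 0.23 over 570 spacer bins and 0.10 over 1113 genic bins of the large single-copy region. In the repeat it was -0.051 over 144 spacer bins and -0.079 over 382 genic bins.

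**Figure D4:**
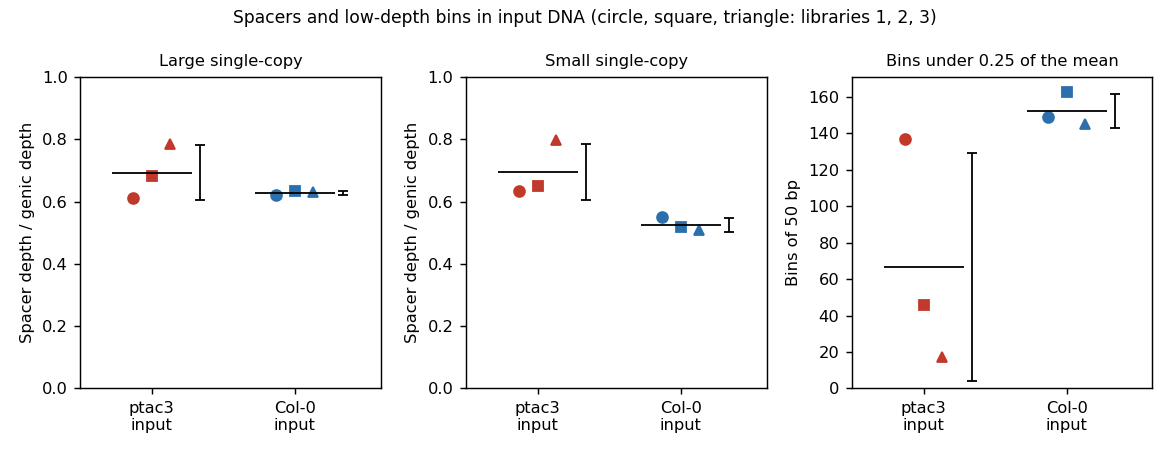
Spacer depth divided by genic depth in the large and small single-copy regions, and the number of 50 bp bins under 0.25 of the library mean, for ptac3 input (red) and Col-0 input (blue). Points are libraries, lines are means and bars are 1 SD (n = 3 each); the groups overlap in the large single-copy region, and in the small one ptac3 (0.635 to 0.799) lies above Col-0 (0.508 to 0.552).

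The lowest depths of the genome lay in a pair of short spacer stretches. The first, 181 bp at 8032 to 8212 between trnS and trnG, genes of transfer RNAs (tRNAs), had a relative depth of 0.00715, 0.0163 and 0.0303 in ptac3 inputs 1, 2 and 3, against 0.00773, 0.000338 and 0.00866 in Col-0 inputs 1, 2 and 3. The second, 72 bp at 36283 to 36354 between psbZ, a photosystem II subunit gene, and another trnG, had 0.0180, 0.0358 and 0.0586 in ptac3 inputs 1, 2 and 3, against 0.00631, 0.0140 and 0.00339 in Col-0 inputs 1, 2 and 3. The stretches were bounded by runs of positions with no reads in these same inputs. In the first stretch the runs came from ptac3 input 1 and all Col-0 inputs, and in the second from Col-0 inputs 1 and 3 only. The order of the libraries is therefore a description. ptac3 inputs 2 and 3 were above all Col-0 inputs in both stretches. ptac3 input 1 was within the Col-0 range in the first stretch and above it in the second. The relative depths rest on a mean of 0.856 to 11.7 reads per base in ptac3 and 0.149 to 6.18 in Col-0. Positions with no read at all numbered 128, 1 and 1 in ptac3 inputs 1, 2 and 3, against 48, 156 and 94 in Col-0 inputs 1, 2 and 3. These values are limited by counting error.

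Across 112 genes of at least 70 bp, no gene was called different between ptac3 and Col-0 input. limma gave 0 higher and 0 lower genes in ptac3 at an adjusted p under 0.05 (0% of genes in each direction). At an unadjusted p under 0.05 there were 7 higher (6.25%) and 2 lower (1.79%). Over bins limma also gave 0 and 0 of 2564 (0% each), with 353 higher (13.8%) and 41 lower (1.6%) at an unadjusted p under 0.05. The 3 libraries of each genotype did not overlap at 8 genes where ptac3 was above (7.14% of genes) and at 7 where it was below (6.25%). Over bins these were 381 above (14.9%) and 134 below (5.23%). The median log2 difference was 0.065 over genes and 0.10 over bins. Centring the libraries on their median bin moved these medians to -0.051 and -0.014, so directions of small differences depend on the scaling.

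The genes with the lowest p among those above Col-0 were matK, rpl36, rps19, rpl14, rpl22 and trnK, none of them called. matK encodes the intron maturase of the plastid and lies inside the intron of trnK, the lysine tRNA gene, so their depths share positions. The relative depth of matK was 0.601, 0.737 and 0.773 in ptac3 inputs 1, 2 and 3, against 0.533, 0.580 and 0.554 in Col-0 inputs 1, 2 and 3. All ptac3 values lay above all Col-0 values, with a log2 difference of 0.31 ± 0.11 (standard error) and a limma adjusted p of 0.487. For trnK the levels were 0.664, 0.784 and 0.818 in ptac3 inputs 1, 2 and 3, against 0.612, 0.652 and 0.637 in Col-0 inputs 1, 2 and 3. The order of the libraries was as for matK, with ptac3 input 1 nearest to Col-0.

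The other 4 are genes of ribosomal proteins that lie in one cluster, so they share neighbouring fragments. rps19 stands at the end of the large single-copy region, with part of it in the repeat. With the first repeat copy it had the largest difference of all 112 genes. It had 0.367, 0.450 and 0.679 in ptac3 inputs 1, 2 and 3, against 0.326, 0.348 and 0.299 in Col-0 inputs 1, 2 and 3, a log2 difference of 0.50 ± 0.18 (standard error, limma adjusted p = 0.487). The ptac3 libraries were above Col-0, but they differed more among themselves than ptac3 input 1 did from Col-0. With the second repeat copy in place of the first, the log2 difference of rps19 was 0.41 (limma adjusted p = 0.54). rpl36 had 0.685, 0.828 and 0.793 in ptac3 inputs 1, 2 and 3, against 0.613, 0.649 and 0.630 in Col-0 inputs 1, 2 and 3. rpl14 had 0.780, 0.883 and 0.922 in ptac3 inputs 1, 2 and 3, against 0.730, 0.723 and 0.738 in Col-0 inputs 1, 2 and 3. Their libraries did not overlap, and the log2 differences were 0.27 for rpl36 and 0.22 for rpl14. rpl22 had 0.580, 0.695 and 0.766 in ptac3 inputs 1, 2 and 3, against 0.576, 0.570 and 0.520 in Col-0 inputs 1, 2 and 3. Its ptac3 input 1 was level with Col-0 input 1.

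The genes with the lowest p among those below Col-0 were trnQ, trnN, rpl32, trnP, trnT and trnW, again none of them called. trnQ, the glutamine tRNA gene, had 1.64, 1.48 and 1.55 in ptac3 inputs 1, 2 and 3, against 2.10, 1.81 and 1.86 in Col-0 inputs 1, 2 and 3. trnN, the asparagine tRNA gene in the repeat, had 1.87, 1.55 and 1.46 in ptac3 inputs 1, 2 and 3, against 2.05, 1.93 and 2.11 in Col-0 inputs 1, 2 and 3. At both genes every ptac3 library was below every Col-0 library. The log2 differences were -0.29 ± 0.090 for trnQ and -0.31 ± 0.10 for trnN (standard errors), each with a limma adjusted p of 0.487. trnT, a threonine tRNA gene, spanned 0.746 to 0.770 in ptac3 and 0.817 to 0.833 in Col-0. Its libraries did not overlap, and its log2 difference of -0.10 had an adjusted p of 0.557 by limma.

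The proline gene trnP and the tryptophan gene trnW lie next to each other and overlapped between the genotypes. trnP had 1.62, 1.65 and 1.56 in ptac3 inputs 1, 2 and 3, against 1.97, 1.72 and 1.65 in Col-0 inputs 1, 2 and 3. trnW had 1.81, 1.54 and 1.28 in ptac3 inputs 1, 2 and 3, against 1.80, 1.59 and 1.83 in Col-0 inputs 1, 2 and 3. rpl32, a ribosomal protein gene of the small single-copy region, had 0.543, 0.751 and 0.754 in ptac3 inputs 1, 2 and 3, against 0.734, 0.905 and 0.891 in Col-0 inputs 1, 2 and 3. In rpl32, unlike matK or rps19, ptac3 input 1 lay farthest from Col-0. When the straight-line trend of each library with the mean input level was removed, a step chosen after seeing the data, rpl32 was the 1 gene called by limma (0.893% of genes), with a log2 difference of -0.42 and an adjusted p of 0.0463. Without ptac3 input 1 that call was lost (log2 difference -0.38, limma adjusted p = 0.0963), and the difference with the trend kept was -0.13, against -0.28 with all 6 libraries.

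Genes of general interest in the plastid showed small differences. psbA, for the D1 protein of photosystem II, had 1.08, 1.10 and 1.07 in ptac3 inputs 1, 2 and 3, against 1.07, 1.11 and 1.07 in Col-0 inputs 1, 2 and 3. rpoB, for a core subunit of the plastid RNA polymerase, had 0.935, 1.02 and 0.943 in ptac3 inputs 1, 2 and 3, against 0.946, 0.983 and 0.964 in Col-0 inputs 1, 2 and 3. Both overlapped, and both log2 differences were within 1 standard error of 0 (0.0066 ± 0.077 for psbA and 0.0093 ± 0.080 for rpoB), with signs that turn under centring. rbcL, for the large subunit of Rubisco, had 1.52, 1.42 and 1.29 in ptac3 inputs 1, 2 and 3, against 1.52, 1.37 and 1.54 in Col-0 inputs 1, 2 and 3. accD, for a subunit of acetyl-CoA carboxylase, had 0.707, 0.785 and 0.884 in ptac3 inputs 1, 2 and 3, against 0.674, 0.724 and 0.692 in Col-0 inputs 1, 2 and 3. These overlapped too, with limma adjusted p-values of 0.725 for rbcL and 0.557 for accD. Without ptac3 input 1 accD was called higher (log2 difference 0.25, limma adjusted p = 0.0301) and rbcL was not called.

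Of the long protein-coding genes of the repeat, ycf2, ndhB and rpl2 were slightly below Col-0 in all ptac3 libraries. ycf1 (ArthCp070) overlapped, with 0.852 to 1.02 in ptac3 and 0.974 to 1.09 in Col-0. ycf2, a large open reading frame, spanned 1.06 to 1.16 in ptac3 and 1.17 to 1.22 in Col-0. ndhB, an NDH subunit gene, spanned 0.950 to 1.00 in ptac3 and 1.03 to 1.08 in Col-0. rpl2, of the large ribosomal subunit, spanned 1.05 to 1.09 in ptac3 and 1.14 to 1.20 in Col-0. Their log2 differences were -0.086, -0.089 and -0.10, each with a limma adjusted p of 0.557. The rRNA genes lie in the same repeat and overlapped. rrn23S had 3.20, 2.29 and 2.18 in ptac3 inputs 1, 2 and 3, against 3.07, 2.39 and 2.97 in Col-0 inputs 1, 2 and 3. rrn16S had 2.98, 2.13 and 2.09 in ptac3 inputs 1, 2 and 3, against 2.79, 2.15 and 2.60 in Col-0 inputs 1, 2 and 3. In both, ptac3 input 1 was the highest of all 6 libraries.

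In the small single-copy region, ndhF of the NDH complex had 0.541, 0.676 and 0.775 in ptac3 inputs 1, 2 and 3, against 0.573, 0.587 and 0.561 in Col-0 inputs 1, 2 and 3. The long reading frame ycf1 (Arthcp087) had 0.628, 0.755 and 0.874 in ptac3 inputs 1, 2 and 3, against 0.655, 0.790 and 0.708 in Col-0 inputs 1, 2 and 3. In both genes ptac3 input 1 was the lowest library and ptac3 input 3 the highest. trnM, a methionine tRNA gene, had 0.518, 0.655 and 0.686 in ptac3 inputs 1, 2 and 3, against 0.484, 0.484 and 0.547 in Col-0 inputs 1, 2 and 3. Its log2 difference was 0.27 ± 0.12 (standard error, limma adjusted p = 0.487).

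**Figure D5:**
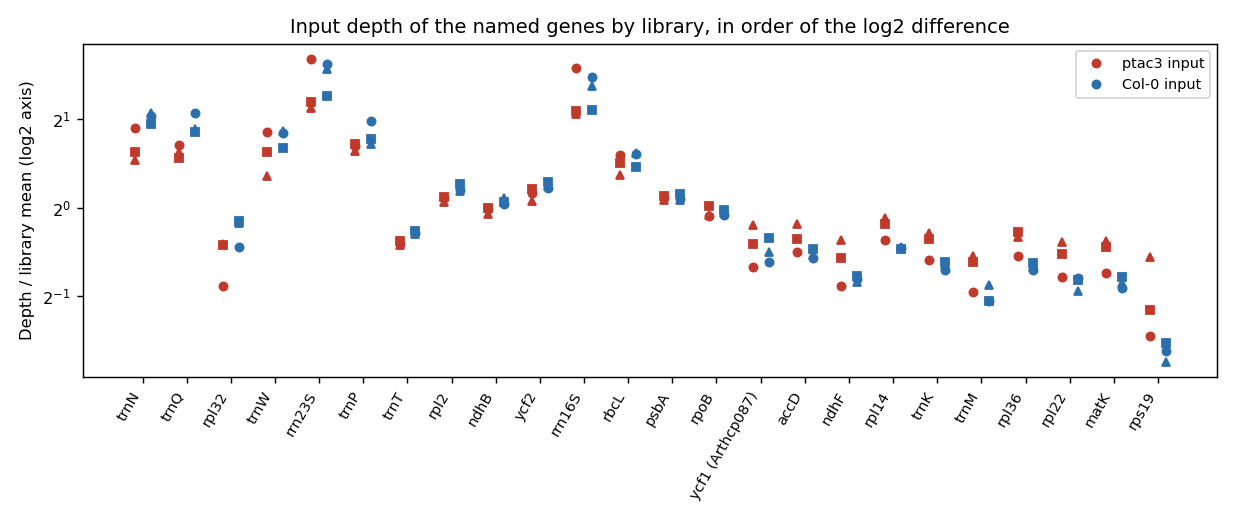
Relative depth (log2 axis) of the 24 genes named by the rule, in order of the log2 difference, with ptac3 inputs in red left of Col-0 inputs in blue; circles, squares and triangles are libraries 1, 2 and 3. The genotypes are apart at trnN and trnQ, where ptac3 is below, and at matK and rps19, where ptac3 is above, and they meet at psbA and rpoB.

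By function, the rRNA and tRNA genes had the lowest median differences while the trend with the mean input level was kept. Of all 112 genes 76 had a log2 difference above 0 and 36 below. All 6 cytochrome b6f genes were above 0 (median 0.12), as were 9 of 11 genes of the NDH complex (median 0.11) and 11 of 15 of photosystem II (median 0.034). For photosystem I 6 of 7 genes were above 0 (median 0.11), in a list that includes the assembly genes ycf3 and ycf4. Genes of the large ribosomal subunit had a median of 0.15, with 7 of 9 above 0, and of the small subunit 0.11, with 9 of 12 above 0. These compare with a median of 0.065 over all genes, and 0 of these groups' genes were called by limma. The 4 genes of the plastid RNA polymerase core had a median of 0.031 and the 6 of the ATP synthase of 0.063. The lowest medians were those of the 3 rRNA genes tested (-0.14, all below 0) and of the 30 tRNA genes (-0.029, with 14 above 0 and 16 below). Median levels in these classes were also the highest, at 2.40 in ptac3 and 2.52 in Col-0 for rRNA genes and 1.33 in ptac3 and 1.32 in Col-0 for tRNA genes. After centring, the median over all genes was -0.051. The centred medians were above 0 for cytochrome b6f (0.0073) and the large ribosomal subunit (0.037). They were below 0 for photosystem I (-0.0039), the NDH complex (-0.0050), the small ribosomal subunit (-0.0073), the ATP synthase (-0.052), photosystem II (-0.081), the plastid RNA polymerase (-0.085), tRNA genes (-0.14) and rRNA genes (-0.26). With the trend removed, rRNA genes (0.18) and tRNA genes (0.044) had the highest medians of these groups, and the others ran from -0.064 to 0.020. Region differed too. The 3 rRNA genes lie in the repeat, and with the trend kept the tRNA median was 0.020 in the large single-copy region and -0.13 in the repeat.

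Leaving out ptac3 input 1 gave many calls. This library was singled out because it lay near Col-0 in these same values, so the calls and p-values of this fit are a description. With 2 ptac3 and 3 Col-0 inputs, limma called 35 genes higher (31.2%) and 9 lower (8.04%) in ptac3, and 865 bins higher (33.7%) and 98 lower (3.82%). The 35 higher genes were 31 protein-coding and 4 tRNA genes, and the 9 lower genes were 7 tRNA and 2 rRNA genes. Among the genes named by the rule, matK, rpl36, rps19, rpl14, rpl22, trnK, trnM, accD and ndhF were called higher. trnQ, trnN, trnW and rrn23S were called lower, and the other genes named by the rule were not called. Of further genes mentioned above, ycf4 was called higher, and trnR (ArthCt127) and rrn4.5S were called lower. petL, for a small subunit of cytochrome b6f, had the largest log2 difference in this fit, 0.71 ± 0.096 (standard error, limma adjusted p = 2.26e-08). Its levels in all libraries were 0.300, 0.508 and 0.575 in ptac3 inputs 1, 2 and 3, against 0.329, 0.324 and 0.275 in Col-0 inputs 1, 2 and 3. ptac3 input 1 thus lay within the Col-0 range for this gene, and in the fit of all 6 libraries the log2 difference was 0.46 (limma adjusted p = 0.487). trnN had the largest difference among the lower genes, -0.40 ± 0.094 (standard error, limma adjusted p = 0.000662).

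These calls depended on the scaling. Centred on the median bin and without ptac3 input 1, limma called 0 genes higher and 0 lower (0% each). Unadjusted p-values under 0.05 were found for 9 higher and 38 lower genes. The same libraries gave 391 bins higher (15.2%) and 354 lower (13.8%) after centring. Leaving out any other of the 6 libraries gave 0 genes in either direction, with 0 to 5 higher and 0 to 2 lower genes at an unadjusted p under 0.05. The ptac3 libraries varied more among themselves than the Col-0 libraries. The SD between libraries on the log2 scale had a median over genes of 0.15 in ptac3 and 0.092 in Col-0, and was larger in ptac3 for 88 of 112 genes.

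The same contrast was made in the protein-bound fraction, whose 3 ptac3 and 3 Col-0 IPOD libraries were not used above. Col-0 IPOD library 3 carries the cell line label ptac3 beside a title that says Col-0, and was kept with Col-0. limma called 50 genes higher (44.6%) and 17 lower (15.2%) in ptac3 IPOD. At an unadjusted p under 0.05 there were 55 higher (49.1%) and 19 lower (17%). Without Col-0 IPOD library 3 there were 32 and 17, and after centring on the median bin 0 (0%) and 8 (7.14%). Leaving out ptac3 IPOD 2, Col-0 IPOD 1 or Col-0 IPOD 2 left 0 higher and 2 lower genes in each case, with 29 to 33 higher and 16 to 18 lower at an unadjusted p under 0.05. Without ptac3 IPOD 3 there were 9 higher and 9 lower. The number of higher calls in IPOD thus rests on these libraries.

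The flatter profile of ptac3 libraries 2 and 3 was seen in IPOD too. The slope on the mean Col-0 input over genes was 0.960, 0.671 and 0.528 for ptac3 IPOD 1, 2 and 3, against 1.20, 1.13 and 1.04 for Col-0 IPOD 1, 2 and 3. The log2 ratio of the repeat to the large single-copy region was 0.93, 0.65 and 0.48 in ptac3 IPOD 1, 2 and 3, against 1.16, 1.06 and 1.09 in Col-0 IPOD 1, 2 and 3. Here all ptac3 libraries lay below all Col-0 libraries, by 0.42 on the log2 scale (difference -0.42, exact permutation p = 0.1, the smallest possible, n = 3 each). In input the difference was -0.21 and the libraries overlapped. Within ptac3, the deviations of input and IPOD libraries of the same number from their group means had an r over bins of 0.77, 0.23 and 0.75 for numbers 1, 2 and 3.

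Named genes did not all have the same difference in input and in IPOD. trnQ had a log2 difference of -0.29 in input and of -1.26 in IPOD (limma adjusted p = 0.00336 in IPOD). trnT had -0.10 in input and -0.77 in IPOD (limma adjusted p = 0.00384 in IPOD). trnM had 0.27 in input, the opposite sign, and -0.40 in IPOD (limma adjusted p = 0.0270 in IPOD). At all 3 tRNA genes the difference was lower in IPOD than in input, and whether the fractions differ was not tested here. rps19 had 0.50 in input and 0.57 in IPOD (limma adjusted p = 0.0237 in IPOD), and rpl36 had 0.27 in input and 0.44 in IPOD (limma adjusted p = 0.0237 in IPOD). After centring, rps19 and rpl36 were no longer called in IPOD, while trnQ, trnT and trnM were (each with a limma adjusted p of 0.0105). Of the 35 genes higher in input without ptac3 input 1, 26 (74.3%) were among the 50 higher in IPOD, of which they are 52.0%. Over all 112 genes 44.6% were higher in IPOD and 15.2% lower. Of the 9 lower, 7 (77.8%) were among the 17 lower in IPOD, of which they are 41.2%. Input and IPOD libraries of the same number deviated together in ptac3 for numbers 1 and 3, so these lists are not independent.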

How the data were processed

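Per-base coverage, a signal in whole reads over each plastid position, was used as deposited by the authors, with no scaling between libraries. Per the submitters' processing notes, Trim Galore 0.4.1, Bowtie2 2.2.8.9, bedtools 2.25.0 and the TAIR10 build were used. Read length, filters, duplicate removal and the placement of repeat reads are not given in the sources used here. Coverage is not a count of separate reads, so no count model was used.

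Depth was divided by the library mean over 154477 positions. Genes were placed by the gene table of TAIR10.1, whose repeat pairs and the depth of the files gave the same mirror sum (238649, 11 of 11 gene pairs). The first repeat copy (84171 to 110436) was used. A gene counted from 70 bp, introns included, which left 112 of 129 genes in the table. limma 3.58.1 (R 4.3.3, 2-sided) was run on log2(relative depth + 10% of the median bin), with Benjamini-Hochberg adjustment over all genes or bins and calls at an adjusted p under 0.05. limma was also tested on simulated depths. The same 10% of the median bin was added for the SDs on the log2 scale over bins and between libraries. It was also added for the root mean square differences, slopes, principal components and deviations. Values per library were compared by 2-sided exact permutation tests. The planned measures were the ratios of the repeat and of the small single-copy region to the large one, and unevenness. All input measures with an exact permutation p of 0.1 were outside this plan.

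The libraries and gene lists were chosen with earlier results of these data known. Named genes were the 6 with the lowest p in each direction, since none was called, and 14 listed genes; petL was named after its values were seen. Alternatives were other pseudocounts, scalings, the second repeat copy, a filter on low values, all 12 seedling libraries in 1 fit, robust variances, the replicate number as a block, and each library left out.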

Additional observations from a re-analysis of the deposited data

How the results depend on the processing

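With all 6 inputs, no gene was called under any alternative other than those named here. The results change mainly with ptac3 input 1 and with the scaling. The cause was not tested for the calls that changed. Leaving out 1 library at a time gave 0 to 35 higher and 0 to 9 lower genes, and 0 to 865 higher and 0 to 98 lower bins, with calls only where ptac3 input 1 was left out. Without it, centring as well gave 391 and 354 bins, and removing the trend gave 1 and 15 bins. A pseudocount of 1% gave 1 higher bin and robust limma-trend gave 3 lower bins. Trend removal, chosen after seeing the data, called 1 lower gene, rpl32, also with the replicate block (0.893% of genes), and 0 genes without ptac3 input 1 (3 higher and 8 lower at an unadjusted p under 0.05).

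Leaving out 1 library also moved the differences of ptac3 from Col-0 in the planned measures. The difference in the log2 ratio of the repeat to the large single-copy region ran from -0.34 to -0.11. The difference in unevenness ran from -0.29 to -0.11. The difference in the log2 ratio of the small to the large single-copy region ran from -0.049 to 0.098, with the negative value without ptac3 input 3. In IPOD, leaving out 1 library gave 0 to 64 higher and 2 to 21 lower genes, centring gave 0 and 8, and removing the trend gave 0 and 7.

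Numbers shared by ptac3 and Col-0 inputs had an r of 0.18, 0.25 and -0.018 for their deviations over bins, so they were not taken as pairs. Numbers 1 and 2 of ptac3 correlated best with their own number in Col-0 and number 3 did not. With the replicate block limma called 0 genes (11 higher and 4 lower at an unadjusted p under 0.05) and 0 bins (443 and 45). The exact sign-flip p was 0.25 for the repeat ratio, the smallest this test can give here, with ptac3 below Col-0 at every number. In IPOD the block gave 59 higher and 19 lower genes.

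Some small differences changed sign, none of them called. psbA was at -0.00048 (pseudocount 1%), -0.11 (centred), -0.089 (scaled to the large single-copy mean), -0.012 (trend removed, with and without the block), and -0.0062, -0.0035 and -0.0051 without ptac3 input 2, Col-0 input 1 and Col-0 input 3, and at 0.028 without Col-0 input 2. rpoB was at -0.11 (centred), -0.086 (large single-copy mean), -0.058 (trend removed, with and without the block), and -0.029 and -0.0065 without ptac3 input 2 and Col-0 input 1, and at 0.037 without ptac3 input 1. ycf1 (Arthcp087) was at -0.050 (centred), -0.031 (large single-copy mean), -0.072 (trend removed, with and without the block) and -0.044 (without ptac3 input 3). With the trend removed, with and without the block, trnP was at 0.043, rbcL at 0.022, rrn16S at 0.22, rrn23S at 0.18 and ndhF at -0.013. rrn16S was also at 0.00034, 0.014 and 0.0040 without ptac3 input 2, ptac3 input 3 and Col-0 input 1, and at -0.23 without ptac3 input 1.

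Without ptac3 input 1, centring put psbA at -0.19, rpoB at -0.16 and ycf1 (Arthcp087) at -0.016. Removing the trend put trnP at 0.11, psbA at -0.029, rbcL at 0.0038, rrn16S at 0.20, rrn23S at 0.17, rpoB at -0.080, trnM at -0.0032, ndhF at -0.00017 and ycf1 (Arthcp087) at -0.045. Of these genes, rrn23S, trnM and ndhF were called without ptac3 input 1 while the trend was kept. Their log2 differences in that fit were -0.31, 0.39 and 0.32 (limma adjusted p = 0.0104, 0.0012 and 0.00616). Depth limits the shallow spacers, where values rest on few reads.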

Other observations

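The deepest gene in all 6 seedling inputs was trnR (ArthCt127), an arginine tRNA gene beside the rRNA operon, with a relative depth of 4.45, 3.12 and 3.28 in ptac3 inputs 1, 2 and 3, against 4.90, 3.40 and 4.34 in Col-0 inputs 1, 2 and 3. Among shallow genes, ccsA, for a factor of cytochrome c assembly, had 0.344, 0.525 and 0.671 in ptac3 inputs 1, 2 and 3, against 0.417, 0.427 and 0.394 in Col-0 inputs 1, 2 and 3. The other arginine tRNA gene, trnR (ArthCt093), had 0.370, 0.461 and 0.665 in ptac3 inputs 1, 2 and 3, against 0.353, 0.409 and 0.442 in Col-0 inputs 1, 2 and 3. Each of these genes overlapped between the genotypes.

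The 4 Col-0 leaf inputs, which differ from the seedlings in age, growth and crosslinking order, were not compared by a test. The repeat was 0.826, 1.91, 0.831 and 1.15 times as deep as the large single-copy region in leaf inputs 1, 2, 3 and 4. Spacers of the large single-copy region were 1.04, 0.807, 1.03 and 0.861 times as deep as its genes in leaf inputs 1, 2, 3 and 4.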
